A study of Triticum aestivum with 6 samples.

Results

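Protein kinases pass signals inside the plant cell by placing phosphate groups on other proteins, and most plant kinases act on serine and threonine residues. Mitogen-activated protein kinases (MAP kinases) are the last step of a relay of kinases and are known in plants for carrying stress, defence and developmental signals from the cell surface to the nucleus, where WRKY transcription factors are among their substrates. The genes described here are those of the authors' deposited DESeq2 table whose description contains "protein kinase" or "serine/threonine", where the description belongs to the probe's own gene. They number 4 of the 861 listed genes, and 4 of the 232 listed genes with a description of their own. One was described as a MAP kinase and 3 as non-specific serine/threonine protein kinases, with no closer family name.

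The study profiled messenger RNA in leaf tissue of week-old seedlings of winter wheat (Triticum aestivum, breeding line SE15). In the labels, 3 samples came from seeds exposed to ultrasound before germination (30 kHz, 70 W, 5 minutes, 4 cm from the ultrasound head) and 3 from seeds without ultrasound. Both groups started from 100 seeds with 13.6% water and germinated at 20 °C in the dark for 7 days. The table compares groups called US1 and K1 in its header, which states neither the numerator of the fold change nor the libraries that entered. The sign is therefore kept as deposited, and a negative value would mean lower transcript abundance after ultrasound only if US1 had been divided by K1. No value per library was analysed here, so depth, transcript level and replicate spread are unknown, and n was at most 3 per group. The labels do not say whether replicates were grown apart, and the spread behind the authors' p-values may be technical.

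All 4 genes described as protein kinases lay on the negative side of the authors' deposited table. A listed kinase gene whose description lacks the chosen keywords is not in this count, whatever its sign. The false discovery rate (FDR, the authors' adjusted p) that admitted a gene to the table was under 0.05, and the 861 genes that passed were 1.12% of the 76618 tests that the FDR values imply. The negative side held 420 of them, 0.548% of the tests, and the positive side 441, or 0.576%. An FDR under 0.01 was reached by 2 of the 4 kinases and by 192 of the 420 negative genes, a similar share. Those 192 were 0.251% of the tests. How many wheat kinase genes were tested is not known, so the share of kinase genes listed cannot be set against that background. Because the members were chosen from this same comparison, their values are given as a description. Of all listed genes 48.8% were negative, and among the 228 other genes with a description of their own 28.5% were, or 65 genes. Those 228 included 52 genes that mark leaf tissue, all positive, which lower that share. The median log2 fold change of the 4 kinases was -2.39, a 5.24-fold difference, and the median of all 420 negative genes was -1.71. After the shrinkage that the authors applied, which pulls imprecise values towards 0, these medians were -1.25 for the kinases and -1.24 for all negative genes. The lowest FDR among the kinases was 0.000576 and the highest 0.0363, against 0.0499 for the last gene listed, and kinase genes above the threshold were not analysed here.

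The MAP kinase gene TraesCS7A02G422500 (chromosome 7A, 612990989 to 612994043, minus strand) had the largest unshrunk fold of the 4 in the authors' deposited table. Its log2 fold change was -7.42, an unshrunk ratio of 171, with a standard error (SE) of 1.62 implied by the p-value and a 95% interval from -10.60 to -4.24. The DESeq2 adjusted p was 0.00175. Only 4 of the 420 negative genes had a larger unshrunk fold, and among the 69 negative genes with a description of their own this gene ranked 1. The authors' shrunk value was -1.13, a 2.18-fold difference and 15.2% of the unshrunk log2 value, and by shrunk size the gene ranked 279 of 420. It was one of 52 listed genes with an SE above 1.3. The unshrunk log2 values of these 52 were all at least 5.03 in size, and no shrunk value among them was larger than 1.67. A gene with so large an SE can pass the FDR threshold only at a large unshrunk value, so that floor follows from the listing. The sign and the low p-value therefore come with a fold whose size is poorly fixed, and without levels per library it is unknown whether one group was at or near 0.

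Of the serine/threonine kinases, TraesCS4A02G194800 (4A, 476977837 to 476980583, plus strand) combined a moderate fold with the best precision relative to its size. Its log2 fold change in the authors' deposited table was -2.07, a 4.20-fold difference, with an implied SE of 0.42, a 95% interval from -2.90 to -1.24 and the lowest adjusted p of the 4 kinases (DESeq2, 0.000576). Shrinkage left 75.3% of the log2 value, at -1.56, the largest shrunk size among the kinases and rank 74 of the 420 negative genes. TraesCS4B02G120400 (4B, 141427582 to 141428916, minus strand) had a log2 fold change of -2.71, a 6.52-fold difference, with an SE of 0.72, a 95% interval from -4.11 to -1.30 and a DESeq2 adjusted p of 0.0224. Its shrunk value of -1.37 was 50.5% of the unshrunk one. TraesCS1D02G122500 (1D, 123102204 to 123115246, minus strand) had the smallest fold, with a log2 value of -1.32, a 2.49-fold difference, an SE of 0.37, a 95% interval from -2.03 to -0.60 and a DESeq2 adjusted p of 0.0363. It changed least under shrinkage, keeping 80.4% of its log2 value at -1.06.

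**Figure D1:**
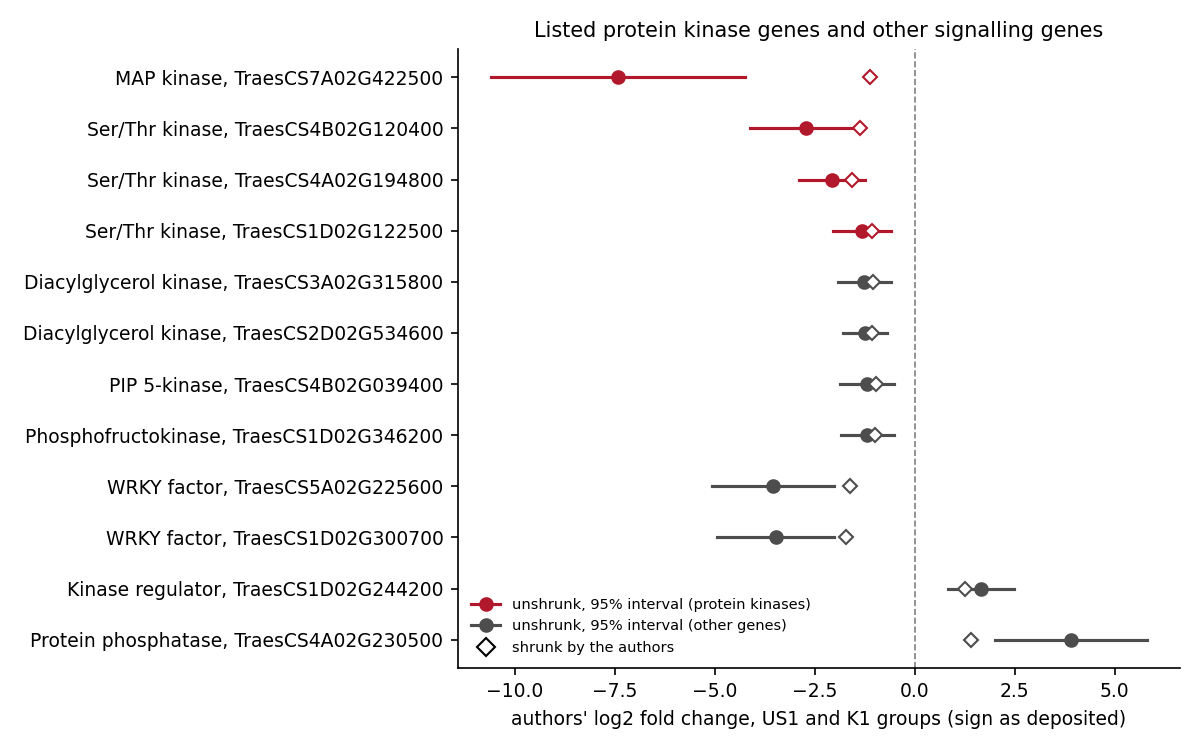
Log2 fold changes from the authors' deposited table (x axis, sign as deposited) for the 4 protein kinase genes in red and 8 other signalling or kinase genes in grey, 1 gene per row. Filled circles are unshrunk values with 95% intervals from the implied SE, and open diamonds are the authors' shrunk values. The interval of the MAP kinase, -10.60 to -4.24, lies apart from those of the other 3 kinases, by a narrow gap for the 4B gene. The shrunk values of all 4 lie between -1.56 and -1.06.

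The order of the 4 kinases depended on the scale. By unshrunk fold the MAP kinase came first, then the genes on 4B, 4A and 1D, and its interval overlapped none of the other 3. At its SE the MAP kinase could be listed only with a large unshrunk fold. Its first place thus follows from the FDR threshold, and its distance from the other kinases is given only as a description. The gap to the 4B gene was narrow, from -4.24 to -4.11. Those 2 genes differed by -4.71 on the log2 scale, with an SE of 1.77 if the estimates were independent. The 3 serine/threonine kinases had overlapping intervals, and the 4B and 4A genes differed by -0.63 on the log2 scale with an SE of 0.83 if the estimates were independent. By the authors' shrunk fold the 4A gene came first, then those on 4B, 7A and 1D. The shrunk values of the kinases spanned -1.56 to -1.06, a range that also held 262 of the 420 negative genes, or 62.4%. By unshrunk size, the kinases ranked 5, 88, 157 and 332 of the 420 negative genes, spread through that side of the table.

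**Figure D2:**
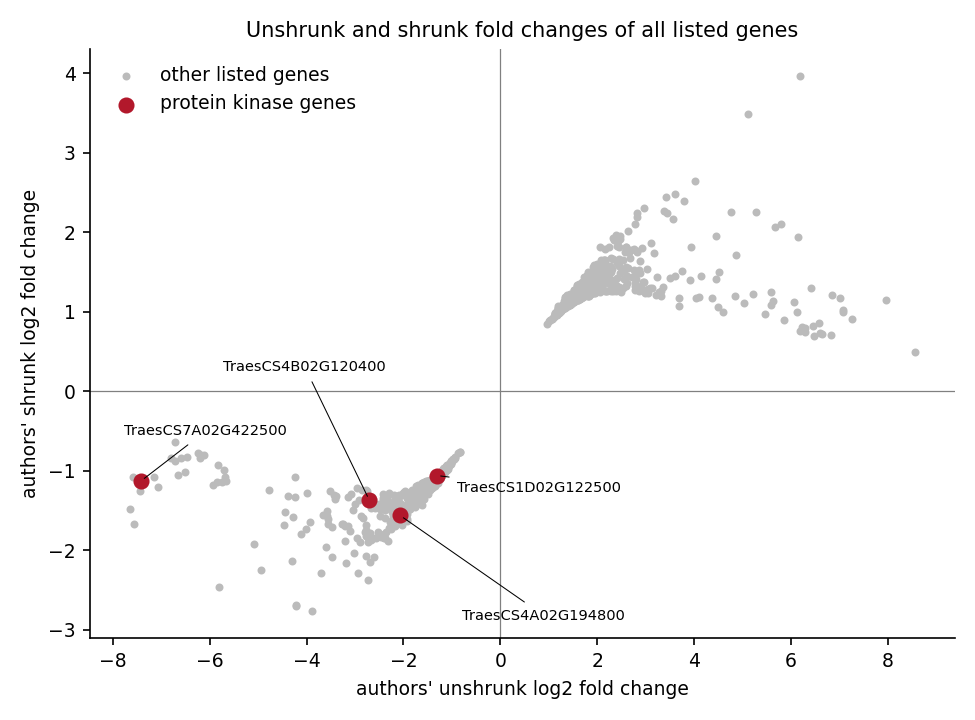
Unshrunk (x axis) and shrunk (y axis) log2 fold changes of all 861 genes in the authors' deposited table, with the 4 protein kinase genes in red. The MAP kinase sits at -7.42 and -1.13, among imprecise genes at the far left, and the 3 serine/threonine kinases sit between -2.71 and -1.32 on the x axis.

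With a single comparison, the only likeness that can be measured between genes is closeness in fold. The listed genes next to the MAP kinase by unshrunk log2 fold change were TraesCS5A02G337700, without a description, at -7.43 (SE 1.58) and TraesCS1B02G048100, a phenylalanine ammonia-lyase, at -7.14 (SE 1.64). Phenylalanine ammonia-lyase is the entry enzyme of phenylpropanoid synthesis. Next to the 4B kinase lay TraesCS5A02G384100, without a description, at -2.73 (SE 0.49) and TraesCS2B02G047400, described as heat shock protein 90, a chaperone, at -2.69 (SE 0.52). The neighbours of the 4A kinase, TraesCS5A02G231300 (-2.09, SE 0.46) and TraesCS5D02G232800 (-2.06, SE 0.50), had no description. The same was true of those of the 1D kinase, TraesCS3A02G435000 (-1.32, SE 0.38) and TraesCS5B02G404000 (-1.31, SE 0.35). Every one of these differences is well within the SE of either gene.

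The positions of the kinases were not used to choose them. Each gene was on a different chromosome of this hexaploid genome. Subgenome A held 2 of them, and subgenomes B and D held 1 each. The minus strand carried 3 of the 4. The genome build is not stated for these positions, and the probes were annotated only as genes, with no exon or UTR. TraesCS4A02G194800 and TraesCS4B02G120400 shared both a description and a chromosome group, but the tables do not pair gene copies across subgenomes. No gene with their description was listed on 4D, and no second gene described as a MAP kinase was listed on 7B or 7D. As 72.0% of the listed genes had no description, such genes could be listed there without being recognised. The probe of the 1D gene spanned 13043 bases, the 19th longest of the 861, and those of the 7A, 4A and 4B genes spanned 3055, 2747 and 1335 bases, against a median of 1789 over all listed probes. None overlapped another listed probe, and no other listed gene lay within 10 gene numbers of any of them. How many of all 861 listed genes stand alone in this way was not counted, so it is not known to set the kinases apart.

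The nearest listed gene was also negative in every case. For the 4A kinase it was the alcohol dehydrogenase ADH1A (TraesCS4A02G202100), 14.7 Mb away, at a log2 fold change of -1.89 (SE 0.39), and for the 4B kinase it was the alcohol dehydrogenase ADH1D (TraesCS4B02G106300), 25.9 Mb away, at -1.46 (SE 0.33). Alcohol dehydrogenases regenerate NAD+ in fermentation. The 1D kinase had GA2ox-D10 (TraesCS1D02G127000) as its nearest listed gene, at 16.0 Mb and -2.18 (SE 0.58). Gibberellin 2-oxidases, the family that name denotes, inactivate gibberellins, the hormones that promote germination and growth. For the MAP kinase it was a xyloglucan endotransglucosylase/hydrolase (TraesCS7A02G426100), an enzyme that remodels cell walls, at 6.17 Mb and -1.28 (SE 0.30). Within 50 Mb of the 4 kinases, a distance chosen after the data were seen, 14 other genes were listed, and all 14 were negative. That result depends on the cut, because the nearest positive gene lay just past it. This was the chlorophyll a-b binding gene TraesCS4B02G089500, at -50.6983 Mb from the 4B kinase, with a log2 fold change of 1.94 (SE 0.44). Within 100 Mb the count was 25 negative and 17 positive of 42, or 59.5% negative, against 46.1% of the 154 other listed genes on these 4 chromosomes. No test was made of this grouping. Its genes may not be independent: those at 14.7 and 14.9 Mb from the 4A kinase are both alcohol dehydrogenases. The 4A and 4B kinases share a description and a chromosome group, so their surroundings may not be separate cases.

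**Figure D3:**
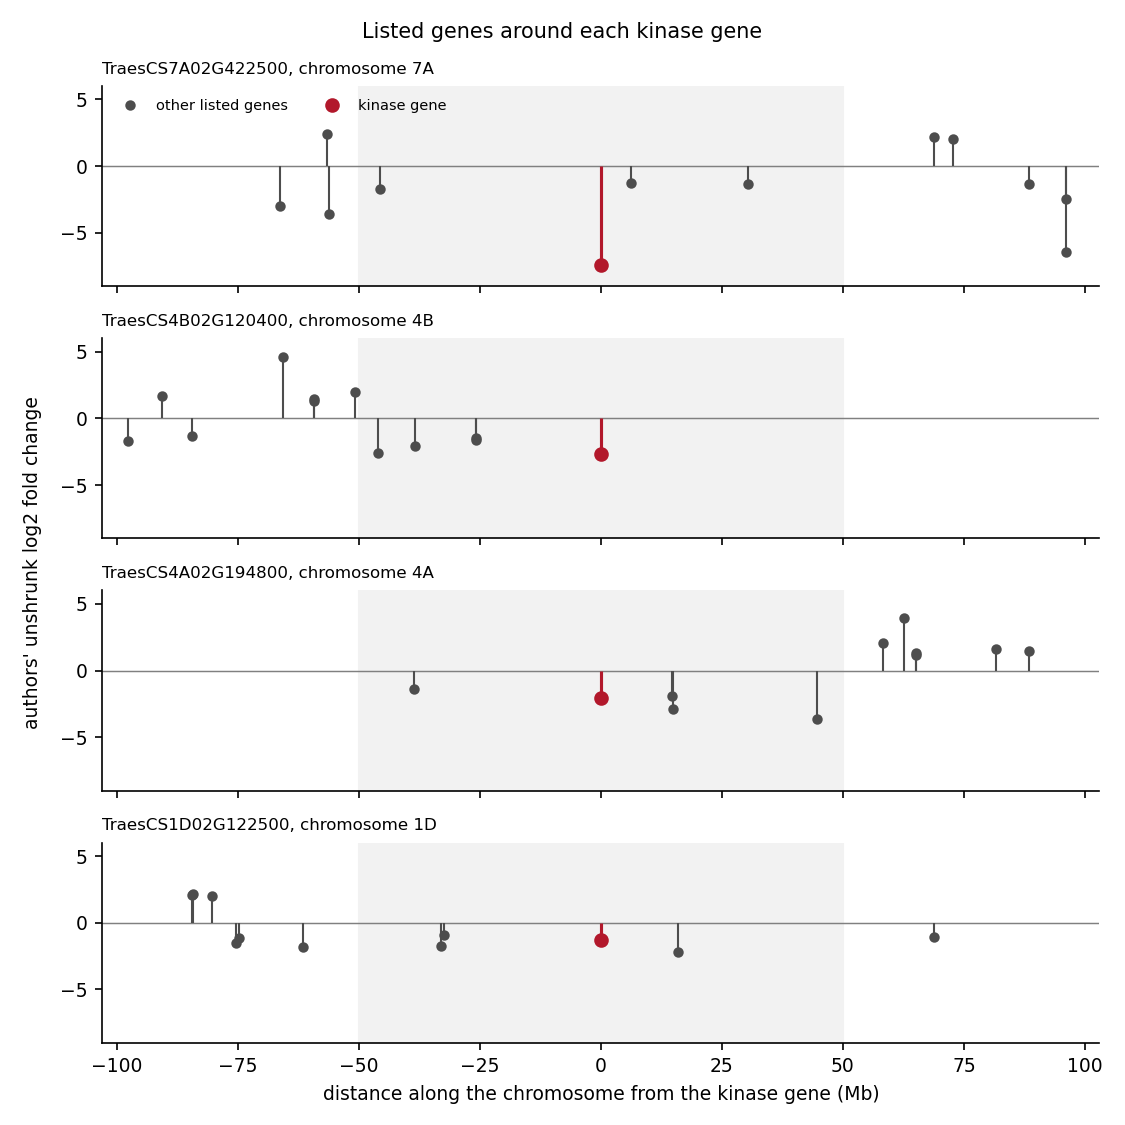
Listed genes within 100 Mb of each kinase gene, by distance along the chromosome in Mb (x axis) and by the authors' unshrunk log2 fold change (y axis), with the kinase in red and the 50 Mb range shaded. All 14 genes in the shaded ranges are negative, and 17 positive genes lie outside them. The nearest of these positive genes lies just past the edge of the shaded range of the 4B kinase.

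The keywords matched few other signalling genes. Under the wider keyword "kinase", 9 genes of the authors' deposited table had such a description, 8 negative and 1 positive. Their median log2 value was -1.26, smaller in size than the -1.71 of all 420 negative genes. The median of all 861 genes, 1.13, lay at the low end of the 441 positive values and describes neither side. The 3 lipid kinases, which make or consume signalling lipids at the membrane, were all negative and close to each other. Diacylglycerol kinase, which turns diacylglycerol into phosphatidic acid, was represented by TraesCS3A02G315800 at -1.26 (SE 0.34) and TraesCS2D02G534600 at -1.23 (SE 0.28). Only the second of these had an FDR under 0.01, at a DESeq2 adjusted p of 0.00363. Phosphatidylinositol 4-phosphate 5-kinase, which makes phosphatidylinositol 4,5-bisphosphate, was represented by TraesCS4B02G039400 at -1.19 (SE 0.34). A metabolic kinase was also listed, the glycolytic enzyme 6-phosphofructokinase (TraesCS1D02G346200), at -1.19 (SE 0.34).

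The only listed kinase regulator and the only listed protein phosphatase were both positive. TraesCS1D02G244200, described from its Arabidopsis counterpart as a probable membrane-associated kinase regulator and not itself a kinase, had a log2 fold change of 1.66 (SE 0.42, shrunk 1.26, DESeq2 adjusted p = 0.0140). TraesCS4A02G230500, a Shewanella-like protein phosphatase 2, which removes phosphate groups from proteins, had 3.91 (SE 0.97, shrunk 1.40, DESeq2 adjusted p = 0.0111). It lay on the same chromosome as the 4A kinase, 62.6 Mb away. Neither gene is known from these tables to act on any of the 4 kinases. The 2 listed WRKY factors were negative, with TraesCS5A02G225600, a repressor by its description from rice, at -3.55 (SE 0.78, shrunk -1.61) and TraesCS1D02G300700 at -3.48 (SE 0.74, shrunk -1.71). The keywords for receptor or lectin kinases, calcium signalling, two-component and hormone receptors, and, as whole words, G proteins each matched 0 listed genes. As 72.0% of the listed genes had no description, a count of 0 here does not show that such genes were missing from the table. Some descriptions also held no word on function, such as that of TraesCS4A02G271800, singled out after its value was seen, which gives only the Arabidopsis locus At1g77720. It was positive, at 3.31 (SE 0.94, shrunk 1.26, DESeq2 adjusted p = 0.0447). Whether it is a kinase is not stated in that description, and kinase genes described in this way would not be counted here.

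None of the 4 kinases was in the second deposited table, which lists 52 genes, 0.0433% of the 120099 tests its FDR values imply, and 0 of the 52 had a description with "kinase" or "serine/threonine". Genes that mark leaf tissue were listed in both tables, with 52 chlorophyll a-b binding, ribulose bisphosphate carboxylase small chain, photosystem or plastocyanin genes in the first, all with a positive log2 fold change, and 26 in the second, all with a negative Z-score. The sign thus ran the other way in the second table, where 49 of the 52 scores were negative, and the 18 genes in both tables all had opposite signs. Neither header says which sign means higher after ultrasound. By unshrunk log2 value, the markers furthest from 0 in the first table were the chlorophyll a-b binding genes TraesCS5D02G464900 (7.01, SE 1.58, shrunk 1.18) and TraesCS5A02G454200 (6.18, SE 0.54, shrunk 3.97). No seed reserve keyword matched a listed gene. Within the first table, the kinases lay on the side opposite to the leaf marker genes. A change in the mix of cells and a change in RNA per cell cannot be told apart in these bulk samples, and the part of either in the kinase values was not tested.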

How the data were processed

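RNA sequencing of 3 samples from ultrasound-treated and 3 from untreated seeds was analysed here from 2 deposited tables of the authors' own comparison, which hold no value per library. Per the file headers, the first gives DESeq2 p-values, adjusted p-values (FDR), log2 fold changes and shrunk log2 fold changes, and the second gives p-values, FDR and a score that the authors call the Z-score difference. STAR 2.7.10a, DESeq2, Trim Galore 0.6.7 and FastQC 0.11.9 stand in the submitters' processing notes on what the authors used, with no roles. The genome build, the annotation and the strand handling are not stated. The labels' extraction text names only a genomic DNA kit before mRNA selection. Tests on counts or on values per library could not be run, so no test is reported.

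Genes were taken from probe names, and a description was used only where it belonged to the same gene, so antisense partners are left out. For the SE, the size of each log2 value was divided by the normal quantile of its p-value, taken as two-sided, which assumes a Wald test, and 95% intervals are 1.96 SE either side. Under a normal shrinkage prior, unshrunk over shrunk value, minus 1, is proportional to the squared SE, and their quotient is constant: its median was 1.83 (quartiles 1.82 and 1.85), and 2.12 for the MAP kinase. As the MAP kinase lay outside these quartiles, and so did the 4B kinase at 1.915, the implied SE and interval of both are less certain. The number of tests was recovered from FDR, rank and p. Both steps were tested on simulated data built with the same formulas. That checks the arithmetic and not whether the deposited p-values came from a Wald test. All 4 kinase genes are named, with every gene of the other lists of at most 3 listed genes and, for longer lists, the 2 largest folds on each side, besides the nearest genes by fold and by position. The members and the keyword lists were chosen with earlier results of these data known. The keyword for G proteins was narrowed to whole words after the data were seen, because it also matched binding proteins: the wide form matched 44 genes, all positive. The RefSeq gene table matched 0 of the 4 genes, and no sequence is shown. Python 3.11.15, pandas 2.3.3, NumPy 2.4.6 and SciPy 1.17.1 were used.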

Additional observations from a re-analysis of the deposited data

How the results depend on the processing

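The negative side held 4 genes described as protein kinases. Thresholds, keywords and shrinkage cannot turn the sign of a deposited value, so the alternatives bear on the counts and sizes and not on the direction. The count was 2 at an FDR under 0.01 and 2 with 1 vote per description, 3 where the log2 value had to reach 2 in size, and 8 under the wider keyword "kinase", which also brought in 1 positive gene. It was 4 with the keyword "protein kinase" alone, without matching probe and annotated gene, and with 1 probe per overlapping group. These last settings could not change the count. All 4 descriptions hold "protein kinase", no kinase description belonged to another gene, and no kinase probe overlapped a listed one. The median log2 fold change of -2.39 became -1.25 with the authors' shrunk values and -1.26 under the wider keyword. Shrinkage moved 3 of the 4 genes by more than their SE and 1 by less. The share of negative genes around the kinases, with distances chosen after the data were seen, was 100% within 25 Mb (4 genes) and within 50 Mb and 59.5% within 100 Mb. The 25 Mb range lies inside the 50 Mb range, where all genes were negative, so its share could not differ. A positive gene lay just past 50 Mb from the 4B kinase, so a slightly wider range would have included it. The cause of these shifts was not tested, beyond fewer genes entering at stricter thresholds. Leaving out single replicates could not be done, as no value per library was analysed. No paired analysis was possible because the tables hold no columns per sample. Depth, and so what limits detection, is unknown.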
